A study of Mus musculus with 54 samples.

Results

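Globin-low erythroid progenitors were taken from the unsorted myeloid progenitors of mouse bone marrow. A member was a well sorted to hold 1 cell, with at least 500 UMIs, in which Car1 made up 0.2% or more of the UMIs and the globin rows Hba-a2, Hbb-b1 and Beta-s together held 2 or fewer. A UMI (unique molecular identifier) is a random tag that counts 1 captured mRNA molecule. By this rule 880 of the 2732 unsorted cells kept were globin-low, out of 8399 kept cells in all groups of the series. They were set against 163 unsorted cells that passed the same Car1 threshold and held 3 or more globin UMIs, called globin-expressing cells from here on, and against the 1689 other unsorted cells. The cells were chosen by their Car1 and globin UMIs, so the values of these 4 rows are a description and were not tested.

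All 3 classes came from wild-type C57BL/6 mice aged 6 to 8 weeks, and from bone marrow cells negative for lineage markers and Sca1 and positive for cKit. Cells were profiled by MARS-seq, a plate-based method that reads the 3' ends of mRNA from single sorted cells. The unsorted cells lay in 16 amplification pools on 8 plates that carry 1 mouse identifier, so every p-value below measures the spread between pools, which may be technical. Other groups enter only in the last comparison. The Cebpa knockout is labelled Cebpa(flox/flox)Mx1-Cre and its control pools carry that label or Cebpa(flox/flox), all with poly(I:C) at 6 to 8 weeks of age. Mx1-Cre is a recombinase driven by an interferon-inducible promoter that poly(I:C) switches on, in blood cells and beyond. The Cebpe-/- knockout and its Cebpe+/+ control were 14 weeks old and were assigned by the authors' well table. The sample labels of both control pools and of 2 of the 4 knockout pools name Cebpa groups injected with poly(I:C), and those of the other 2 knockout pools name an uninjected Cebpe control, so treatment may differ among these pools and cannot be told from the sources used here. Also used were 3 gates of CD34-positive, FcgR-low common myeloid progenitors (CMP) of 6 to 8 weeks, sorted on CD41, on Flt3 and Csf1r, or on Irf8-GFP and MHCII.

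Erythroid progenitors commit to red cell fate while still dividing, and build up the machinery of heme synthesis, the membrane skeleton and blood group proteins as they mature. Globin mRNA accumulates late in this course. The transcription factor Gata2 marks stem and early progenitor cells and gives way to Gata1, which acts with Zfpm1, Gfi1b and Klf1 at erythroid genes. Klf1 activates globin and heme genes, Epor is the receptor for erythropoietin, and Car1 encodes a carbonic anhydrase of red cells.

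Because GATA factors act at GATA motifs, promoter letters are shown for 4 genes that the results turn on. They are the marker Klf1, the receptor gene Epor, Hemgn, which encodes the erythroid nuclear protein hemogen, and Gata2. Each is the stretch of 250 bases before the annotated start of the gene, from RefSeq on GRCm38.p6, read 5′ to 3′ on the gene's own strand. Capitals mark a GATA motif, searched on either strand as the letters GATA with A or T before them and A or G after them.
Klf1, chr8:84901732-84901981, plus strand: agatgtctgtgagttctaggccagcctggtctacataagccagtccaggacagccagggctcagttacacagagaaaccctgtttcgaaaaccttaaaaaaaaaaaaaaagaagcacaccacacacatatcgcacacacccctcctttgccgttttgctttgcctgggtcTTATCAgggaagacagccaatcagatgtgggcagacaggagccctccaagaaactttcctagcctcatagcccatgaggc
Epor, chr9:21963577-21963826, minus strand: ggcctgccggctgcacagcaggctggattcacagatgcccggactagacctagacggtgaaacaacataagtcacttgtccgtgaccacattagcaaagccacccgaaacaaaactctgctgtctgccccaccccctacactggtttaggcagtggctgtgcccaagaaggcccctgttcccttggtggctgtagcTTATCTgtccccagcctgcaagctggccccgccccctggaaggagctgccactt
Hemgn, chr4:46404184-46404433, minus strand: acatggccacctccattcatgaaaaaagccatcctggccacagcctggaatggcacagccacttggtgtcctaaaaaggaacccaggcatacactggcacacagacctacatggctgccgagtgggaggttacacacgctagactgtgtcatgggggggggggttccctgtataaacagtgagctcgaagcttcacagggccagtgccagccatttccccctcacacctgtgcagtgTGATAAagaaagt
Gata2, chr6:88193641-88193890, plus strand: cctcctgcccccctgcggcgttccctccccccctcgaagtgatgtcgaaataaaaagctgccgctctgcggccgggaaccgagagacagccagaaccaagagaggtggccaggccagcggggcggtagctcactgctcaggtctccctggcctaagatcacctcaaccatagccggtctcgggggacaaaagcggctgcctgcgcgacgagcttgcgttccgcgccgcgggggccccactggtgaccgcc
The Klf1, Epor and Hemgn windows held 1 match each, at 80, 54 and 13 bases before the start, and neither of the 2 annotated Gata2 windows held one. Of 27025 promoters of this length, 7322 (27.1%) held a match, so a match alone sets no gene apart.

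The kept cells had a median of 4141 UMIs in globin-low cells, 5782 in globin-expressing cells and 2593 in the other unsorted cells. Pools held 482844 to 854479 UMIs each. The globin threshold is a number of UMIs and not a share, so shallow wells reach it less easily, and results that moved with depth carry their values at 2000 or at 4000 or more UMIs beside them. All 190 cell barcodes occurred in more than 1 pool, as the plate design reuses them, and the 2732 wells were distinct. The 32 wells without a cell held 12 to 75 UMIs, 1305 in all, with 6 UMIs of Car1, 3 of Klf1, 18 of Mpo and 0 of Apoe and of the globin rows.

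Membership was dominated by cells without any globin UMI. Of the 880 members, 647 had 0 globin UMIs, 162 had 1 and 71 had 2, just inside the threshold. Just outside it, 49 Car1 cells had 3 globin UMIs and 29 had 4. On the Car1 side, 100 members stood at 0.2% to under 0.3%, and 194 cells with 2 or fewer globin UMIs stood just below the threshold at 0.1% to under 0.2%. The median member held 25 Car1 UMIs, or 0.603% of its UMIs, and 46 members passed on 2 Car1 UMIs. Globin-expressing cells were not rich in globin either, since 97 of the 163 held 3 to 5 globin UMIs and 29 held 10 or more. Globin-low cells made up 24.1% to 39.3% of the kept cells of a pool, with a median of 31.3%, and 84.4% of all Car1 cells.

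The erythroid label held on markers that the rule did not use. Klf1 was detected in 86.1% of globin-low cells, against 100% of globin-expressing cells and 23.0% of other unsorted cells. Gata1 was detected in 71.3%, 93.9% and 18.1% of the same classes, and Epor in 60.2%, 92.6% and 11.9%. Depth differed between the classes, and with each cell thinned to 1000 UMIs (116 members, 0 globin-expressing and 199 other cells were too shallow) Klf1 was detected in 62.2%, 70.6% and 13.1%. Summed over the 7 erythroid markers other than Car1, the pools used below held 8858 to 10712 CPM in globin-low cells. CPM is a UMI count scaled to the same library total in every pool and class, here with TMM scaling. The sum was 11062 to 13900 in globin-expressing cells and 1821 to 3721 in the others.

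Markers of other lineages were low in the members but not absent. The 4 neutrophil markers Elane, Prtn3, Mpo and Ctsg summed to 1212 to 2839 CPM in globin-low cells, 1006 to 2455 in globin-expressing cells and 28088 to 41988 in the other unsorted cells. Mpo, the myeloperoxidase of granulocyte precursors, had at least 1 UMI in 94.1% of globin-low cells, 98.8% of globin-expressing cells and 96.4% of the others, and after thinning to 1000 UMIs in 67.7%, 65.6% and 93.3%. Since Mpo is also the most frequent of these genes in wells without a cell, its detection in a member was not read as expression. The 5 monocyte markers summed to 18.3 to 115 CPM in globin-low cells, against 1213 to 3545 in the others. Megakaryocyte, basophil or mast, lymphoid and eosinophil markers reached at most 63.0, 12.8, 19.2 and 48.3 CPM in globin-low cells, and Ms4a2 and Cd3e were at 0 there. In the other unsorted cells the same sums were 44.2 to 333, 7.52 to 190, 7.77 to 103 and 0 to 773 CPM. These ranges overlapped with those of the members, unlike the neutrophil and monocyte sums.

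The question for the first comparison was which genes separate Car1 cells below and above the onset of globin mRNA. UMIs were summed per pool and class over the 11 pools with at least 10 cells in every class (631 globin-low, 131 globin-expressing and 1147 other cells). With edgeR's quasi-likelihood test and the pool as a block, 290 of 4973 gene rows (5.83%) were higher in globin-low cells and 267 (5.37%) were lower at an adjusted p under 0.05. DESeq2 called 4.2% of the rows higher and 3.98% lower. Of the early progenitor genes tested, 7 of 13 were higher, Apoe and Gata2 among them. Most tested genes of heme synthesis, the red cell membrane and mitosis were lower, as were 14 of 28 DNA replication genes, while Klf1, Gata1, Gfi1b and Zfpm1 did not pass the test.

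Among early progenitor genes, 7 of the 13 tested (of 29 listed) rose in globin-low cells and 0 fell, against 5.83% of all rows called higher. Their median log2 fold change was 1.17, against 0.00 over all rows. Apoe encodes the lipid carrier apolipoprotein E. It stood at 322, 370 and 532 CPM (lowest, median and highest pool) in globin-low cells and at 0, 36.4 and 82.5 CPM in globin-expressing cells. The pools of the 2 classes did not overlap, and Apoe rose by 3.34 ± 0.19 (log2, SE; edgeR adjusted p = 1.16e-35). Gata2 stood at 68.8, 115 and 142 CPM in globin-low cells and at 0, 20.2 and 42.3 CPM in globin-expressing cells, again without overlap. Its log2 fold change was 2.36 ± 0.28 (edgeR adjusted p = 1.41e-12). The other called members were Muc13 (2.91), a mucin of progenitor cells, Hhex (2.65), a homeobox factor, Txnip (1.26), a thioredoxin inhibitor, Zfp36l2 (1.17), an RNA-binding protein, and Myc (0.44), the growth regulator. Cd34 did not pass the test, at 6.80, 10.7 and 44.7 CPM in globin-low cells and 0, 11.8 and 30.3 CPM in globin-expressing cells.

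The 10 largest rises among genes of 100 CPM or more also held Ptprcap, the adaptor of the phosphatase CD45, with a log2 fold change of 2.48 and pools at 123 to 238 CPM in globin-low cells and 0 to 60.6 in globin-expressing cells. S100a10, the partner of annexin A2, also rose, with pools at 150 to 398 CPM in globin-low cells and 0 to 80.8 CPM in globin-expressing cells. Ass1, an enzyme of arginine synthesis, rose by 2.20, Arhgdib, a GTPase inhibitor of blood cells, by 1.88, and Ramp1, a receptor partner, by 1.84. Crip1, a LIM protein, Psmb8, a subunit of the immunoproteasome, and Por, the cytochrome P450 reductase, rose by 1.66, 1.56 and 1.28. Of these 10 genes, Ramp1 and Crip1 had pools that overlapped between the classes. The 10 genes were picked in these same pools, for large changes in a consistent direction. Separation of the pools is therefore partly built into the choice, and the share of all rows without overlap was not counted.

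Depth moved with this group. Within the members, 215 cells under 2000 UMIs held 2430 ± 655 CPM of Apoe (mean ± SD over 16 pools), and 665 cells of 2000 or more UMIs held 290 ± 76.4 CPM, both without TMM scaling. For Gata2 the same values were 655 ± 314 and 83.5 ± 23.9 CPM. Other unsorted cells showed the same split, with 1233 ± 312 CPM of Apoe under 2000 UMIs and 148 ± 42.6 at 2000 or more. Among cells of 4000 or more UMIs alone, Apoe was still higher in globin-low than in globin-expressing cells, by 2.05 (log2, edgeR adjusted p = 1.59e-09). At that depth 2 of the 7 early progenitor genes tested were called higher, with a list median of 0.33. Of the 10 largest rises, 9 could be tested at that depth and all 9 kept their call. The one too low to be tested there was Gata2, which was higher by 1.89 at 2000 or more UMIs (log2, edgeR adjusted p = 5.48e-07).

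**Figure D1:**
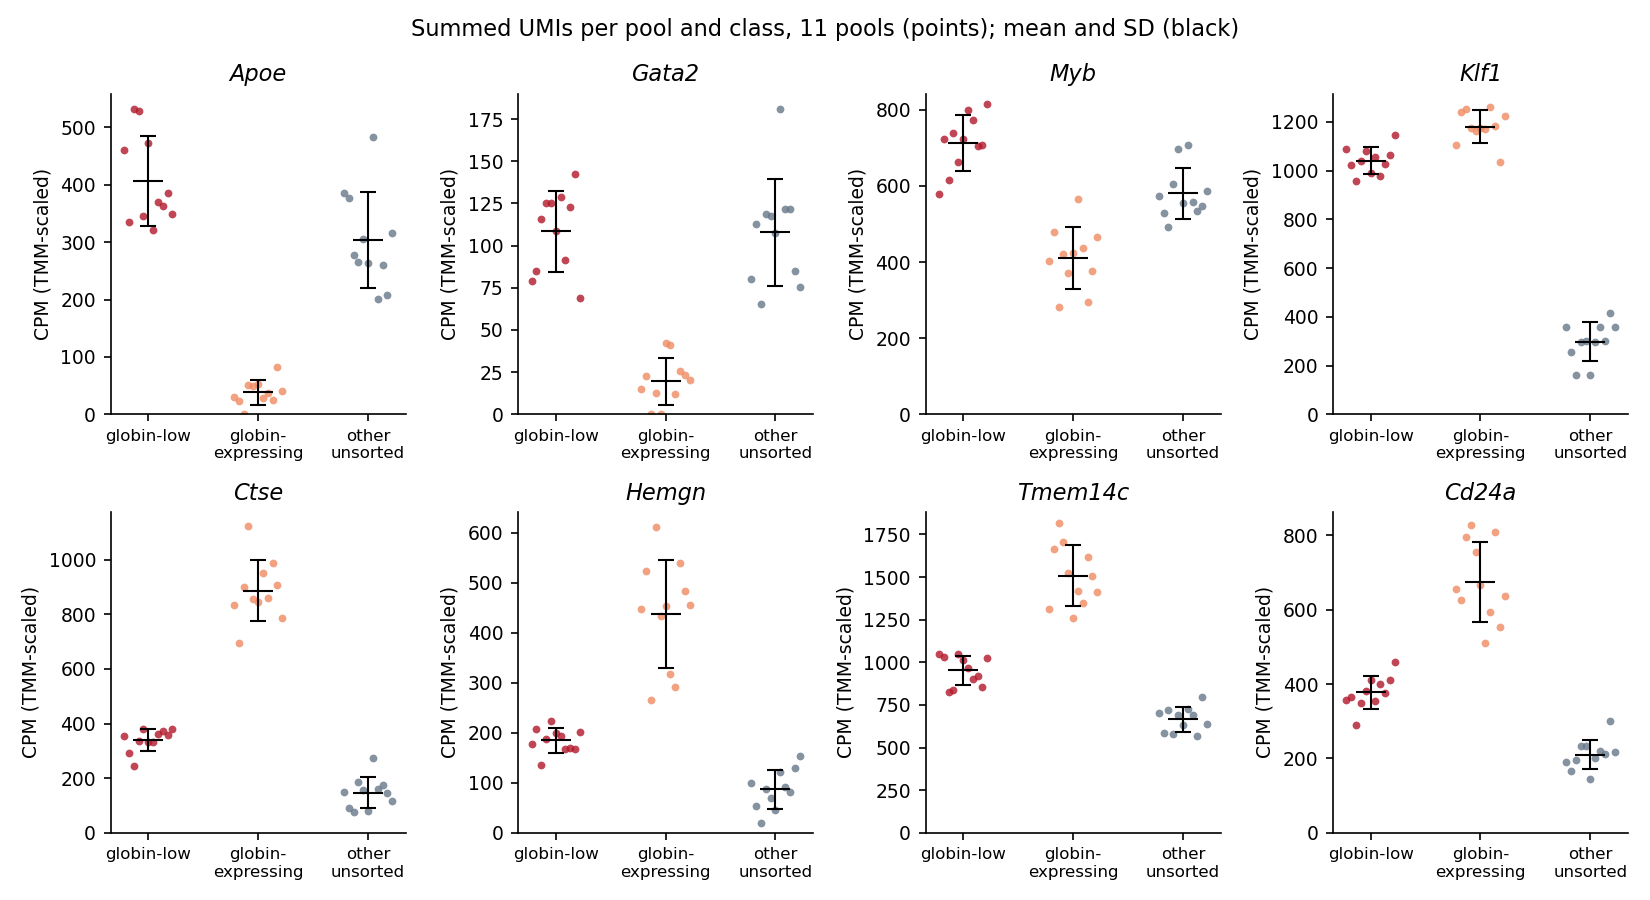
Expression in CPM (TMM-scaled, linear axes from 0) of 8 genes in each of 11 pools, for globin-low, globin-expressing and other unsorted cells; points are pools, black marks the mean and SD. Apoe, Gata2 and Myb are higher in all globin-low pools than in any globin-expressing pool, Ctse, Hemgn, Tmem14c and Cd24a are lower, and Klf1 overlaps.

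Transcription factors of the erythroid program mostly did not pass the test. Of 17 tested (of 24 listed), 3 rose, 1 fell and 13 did not pass, with a median log2 fold change of -0.19. Over all rows 5.83% were called higher and 5.37% lower, so the 1 fall was near the share of all rows. Klf1 stood at 956, 1038 and 1146 CPM in globin-low cells and at 1037, 1173 and 1261 CPM in globin-expressing cells, so the classes overlapped. Its log2 fold change was -0.18 ± 0.07 (edgeR adjusted p = 0.0593). Gata1 stood at 295, 365 and 472 CPM in globin-low cells and at 344, 437 and 574 CPM in globin-expressing cells (log2 fold change -0.26, edgeR adjusted p = 0.0598). When members with 0 globin UMIs alone were set against globin-expressing cells, both were called lower, Klf1 at -0.23 (edgeR adjusted p = 0.0164) and Gata1 at -0.32 (0.0173). Gfi1b and Zfpm1, partners of Gata1, had log2 fold changes of -0.24 and -0.19 and edgeR adjusted p of 0.123 and 0.058.

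Among the factors Myb, a regulator of progenitor growth, rose with the lowest adjusted p. It stood at 579, 722 and 816 CPM in globin-low cells and at 283, 421 and 565 CPM in globin-expressing cells. Every globin-low pool was above every globin-expressing pool, and the log2 fold change was 0.79 ± 0.08 (edgeR adjusted p = 6.77e-15). Cbfa2t3, a corepressor, rose by 0.47 and Lmo4, a LIM-domain factor, by 1.72, while Klf3, a repressor of the Klf family, fell by 0.63. Lmo4 was at no more than 51.0 CPM in any globin-low pool.

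Of the receptors and signalling genes, 1 of the 8 tested (of 16 listed) rose and 3 fell, beside 5.83% and 5.37% of all rows. Epor stood at 167, 325 and 384 CPM in globin-low cells and at 265, 445 and 565 CPM in globin-expressing cells. The ranges overlapped, but Epor was lower in 11 of 11 pools and fell by 0.51 on the log2 scale (edgeR adjusted p = 2.13e-05). Cd24a, a surface glycoprotein of maturing erythroid cells, stood at 289, 377 and 458 CPM in globin-low cells and 510, 656 and 828.8 CPM in globin-expressing cells, with no overlap and a log2 fold change of -0.82 (edgeR adjusted p = 5.37e-15). Sphk1, which makes the lipid signal sphingosine 1-phosphate, fell by 0.46. The row that joins Kit, the stem cell factor receptor, with AK047175 rose by 0.97, and this value cannot be given to Kit alone.

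Heme synthesis genes fell nearly throughout. Of the 14 genes tested (of 18 listed), 12 fell in globin-low cells and 0 rose, against 5.37% of all rows called lower, and the median log2 fold change was -0.54. Tmem14c, a mitochondrial membrane protein that serves heme precursor import, stood at 828, 965 and 1051 CPM in globin-low cells and at 1257, 1508 and 1819 CPM in globin-expressing cells. The pools did not overlap, and Tmem14c fell by 0.65 ± 0.06 (log2, SE; edgeR adjusted p = 1.45e-17). The enzymes Alad, Uros, Urod, Cpox, Ppox and Fech fell by 0.42, 1.03, 0.27, 0.53, 0.82 and 0.54. The mitochondrial carriers Slc25a38 and Abcb6 fell by 0.75 and 0.54, and the heme-handling genes Hebp1 and Blvrb by 0.80 and 0.33. Alas1, the first enzyme in most tissues, did not pass the test. Alas2, its erythroid form, was too low to be tested, at 0 to 3.94 CPM in globin-low pools and 0 to 30.3 in globin-expressing pools. Among cells of 4000 or more UMIs, 9 of the 13 heme genes tested were called lower and 0 higher. With each cell thinned to 1000 UMIs, 4 of the 8 tested were called lower and 1 higher. Without the pool block 9 of 14 were called lower and 0 higher.

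Beside 5.37% of all rows called lower, 3 of 11 iron genes tested (of 14 listed) fell and 0 rose. These were the ferritin chains Fth1 and Ftl1, which store iron, with log2 fold changes of -0.45 and -0.36, and Glrx5, which serves iron-sulphur clusters, with -0.31. Tfrc, the transferrin receptor, was too low to be tested, with medians of 27.5 CPM in globin-low and 22.8 CPM in globin-expressing pools.

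Membrane and blood group genes fell in 12 of 17 cases tested (of 22 listed) and rose in 0, against 5.37% of all rows called lower. Their median log2 fold change was -0.41. The spectrin gene Spnb1 stood at 77.0, 121 and 149 CPM in globin-low cells and at 152, 308 and 388 CPM in globin-expressing cells, without overlap, and fell by 1.28. Its partner Spna1 fell by 1.13, the anchor Ank1 by 0.68, and the skeleton proteins Epb4.1 and Add2 by 0.37 and 0.64. The Rh proteins Rhd and Rhag fell by 0.73 and 0.59, and Ermap, Bsg and Mns1 by 0.37, 0.27 and 0.32. Cldn13, a claudin, stood at 188, 274 and 399 CPM in globin-low cells and at 248, 623 and 797 CPM in globin-expressing cells, which overlapped, and fell by 1.15. At 4000 or more UMIs, 11 of 17 were called lower, with a median of -0.43. The counts were 4 of 11 with each cell thinned to 1000 UMIs and 8 of 17 without the pool block. GATA matches lay in the promoters of 6 of the 10 list members with an entry (60.0%), against 482 of the 3157 tested rows with one (15.3%) and 33 of the 174 rows with one that fell (19.0%). These are letter matches in 250 bases and show no binding. In the heme list 2 of 14 members with an entry (14.3%) held a match, and in the early progenitor list 4 of 22 (18.2%).

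The fall with the lowest adjusted p of all rows was that of Ctse, the aspartic protease cathepsin E. It stands in a list of other erythroid-associated genes, in which 7 of 15 tested (of 25 listed) fell and 2 rose. Over all rows 5.37% were called lower and 5.83% higher. Ctse stood at 244, 354 and 381 CPM in globin-low cells and at 695, 861 and 1122 CPM in globin-expressing cells. The classes lay far apart, with a log2 fold change of -1.36 ± 0.08 (edgeR adjusted p = 3.47e-33). Car2, another carbonic anhydrase of red cells, stood at 4515, 5812 and 6600 CPM in globin-low cells and at 5965, 6941 and 8664 CPM in globin-expressing cells, and fell by 0.35. Prdx2, the peroxiredoxin of red cells, fell by 0.58, Fam132a, which encodes the secreted protein adipolin, by 0.55, Isg20, an exonuclease, by 0.82, and Pklr, the red cell pyruvate kinase, by 0.45. The metallothioneins Mt1 and Mt2, which bind zinc and copper, rose instead, by 0.43 and 0.31.

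Other genes among the 10 largest falls were Hemgn, with 135, 188 and 223 CPM in globin-low cells and 265, 454 and 612 CPM in globin-expressing cells. Its pools did not overlap and its log2 fold change was -1.25 ± 0.11 (edgeR adjusted p = 2.31e-18). The row 1190002H23Rik had a log2 fold change of -1.56, Tmem8 of -1.34, Fads3, a desaturase-family gene, of -1.33, and Aldh1a1, which makes retinoic acid, of -1.26. Grina and Ift140, a subunit of the cilium transport complex, had log2 fold changes of -1.23 and -1.15. At 4000 or more UMIs, 7 of the 10 largest falls could be tested and all 7 kept their call.

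Cell cycle genes were lower in globin-low cells. Over all rows 5.37% were called lower and 5.83% higher. In the DNA replication list 14 of 28 tested (of 30 listed) fell and 0 rose, and in the mitosis list 17 of 22 (of 30 listed) fell and 1 rose, with median log2 fold changes of -0.32 and -0.45. Rrm2, a subunit of the enzyme that makes deoxynucleotides, stood at 104, 150 and 241 CPM in globin-low cells and at 165, 243 and 406 CPM in globin-expressing cells. The ranges overlapped, while Rrm2 was lower in 11 of 11 pools and fell by 0.79 (edgeR adjusted p = 5.24e-07). Tk1, the thymidine kinase, fell by 0.62, and Mcm4, part of the replicative helicase, by 0.63. Among mitotic genes Nusap1 and Kif11 of the spindle fell by 0.79 and 0.67, Mki67, a chromosome coat protein, by 0.55 and Top2a, a topoisomerase, by 0.33. The riser was the row that joins Ccnd2, a G1 cyclin, with CYL2, by 1.05. Mki67 varied widely between pools, at 102 to 446 CPM in globin-low cells and 138 to 796 in globin-expressing cells, and was lower in 7 of 11 pools. At 4000 or more UMIs, 13 of 24 replication genes and 9 of 20 mitosis genes tested were called lower. Replication calls were 4 of 16 lower with each cell thinned to 1000 UMIs and 9 of 28 without the pool block. The mitosis calls were fewer without the pool block (5 lower) and by DESeq2 (11 lower), and edgeR called 0 of 11 lower when each cell was thinned to 1000 UMIs (5 at an unadjusted p under 0.05).

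Ribosome biogenesis leaned the other way. Of 26 genes tested (of 30 listed), 6 rose in globin-low cells and 0 fell, against 5.83% of all rows called higher. The median log2 fold change was 0.14. Ncl (nucleolin) stood at 3778, 4136 and 4837 CPM in globin-low cells and at 3099, 3727 and 4184 CPM in globin-expressing cells, with overlap, and rose by 0.18. Bop1 and Nop2, which process ribosomal RNA, rose by 0.71 and 0.44, and Mybbp1a and Ddx21, both nucleolar, by 0.36 and 0.34. The joined row of Ebna1bp2 and D4Ertd617e rose by 0.47. At 4000 or more UMIs the same number, 6 of 26, was called higher, with a median of 0.19. In the chaperone list 2 of 21 tested (of 24 listed) rose, Fkbp4 by 0.22 and Hsp90ab1 by 0.12. That count was near the 5.83% of all rows called higher, and the list median was 0.05.

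Genes of other lineages were seldom called between the Car1 classes, where 5.83% of all rows were called higher and 5.37% lower. Of 13 neutrophil genes tested (of 20 listed) 2 rose, Mpo by 0.22 (edgeR adjusted p = 0.0102) and Gstm1 by 0.99. The count did not hold with depth, since edgeR called 0 of 13 at 2000 or more UMIs and 0 of 10 at 4000 or more (1 at an unadjusted p under 0.05 in each), and DESeq2 called 0 of 13 over all members. In the basophil and mast list 3 of 4 tested (of 16 listed) rose, namely Gata2, Lmo4 and Ifitm1, which also stand in other lists, and the basophil and mast markers Prss34, Mcpt8, Cpa3 and Ms4a2 summed to at most 12.8 CPM in the members. Of 11 interferon-stimulated genes tested (of 19 listed), Ifitm1 and Ifitm2 rose, by 2.94 and 0.81. Of the immediate early genes 1 of 2 tested rose, Ier2 by 1.25. Neither edgeR nor DESeq2 called any of the 7 monocyte and dendritic, 2 lymphoid and 1 megakaryocyte genes tested. At an unadjusted p under 0.05 by edgeR the counts were 0, 1 and 0, and no eosinophil gene was high enough to test.

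Sequencing batches were also read apart. In batch SB19 (8 pools) and batch SB17 (3 pools) the median log2 fold change was -0.57 and -0.54 for heme synthesis, -0.41 and -0.46 for membrane genes, -0.32 and -0.28 for replication, -0.44 and -0.46 for mitosis and 1.40 and 0.89 for early progenitor genes. The medians of the erythroid transcription factors (-0.22 and 0.06) and of the monocyte and dendritic genes (-0.18 and 0.06) had opposite signs in the 2 batches. With 3 pools the calls were fewer, and 3 heme, 3 membrane, 1 replication and 2 mitosis genes were called lower in SB17 alone.

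**Figure D2:**
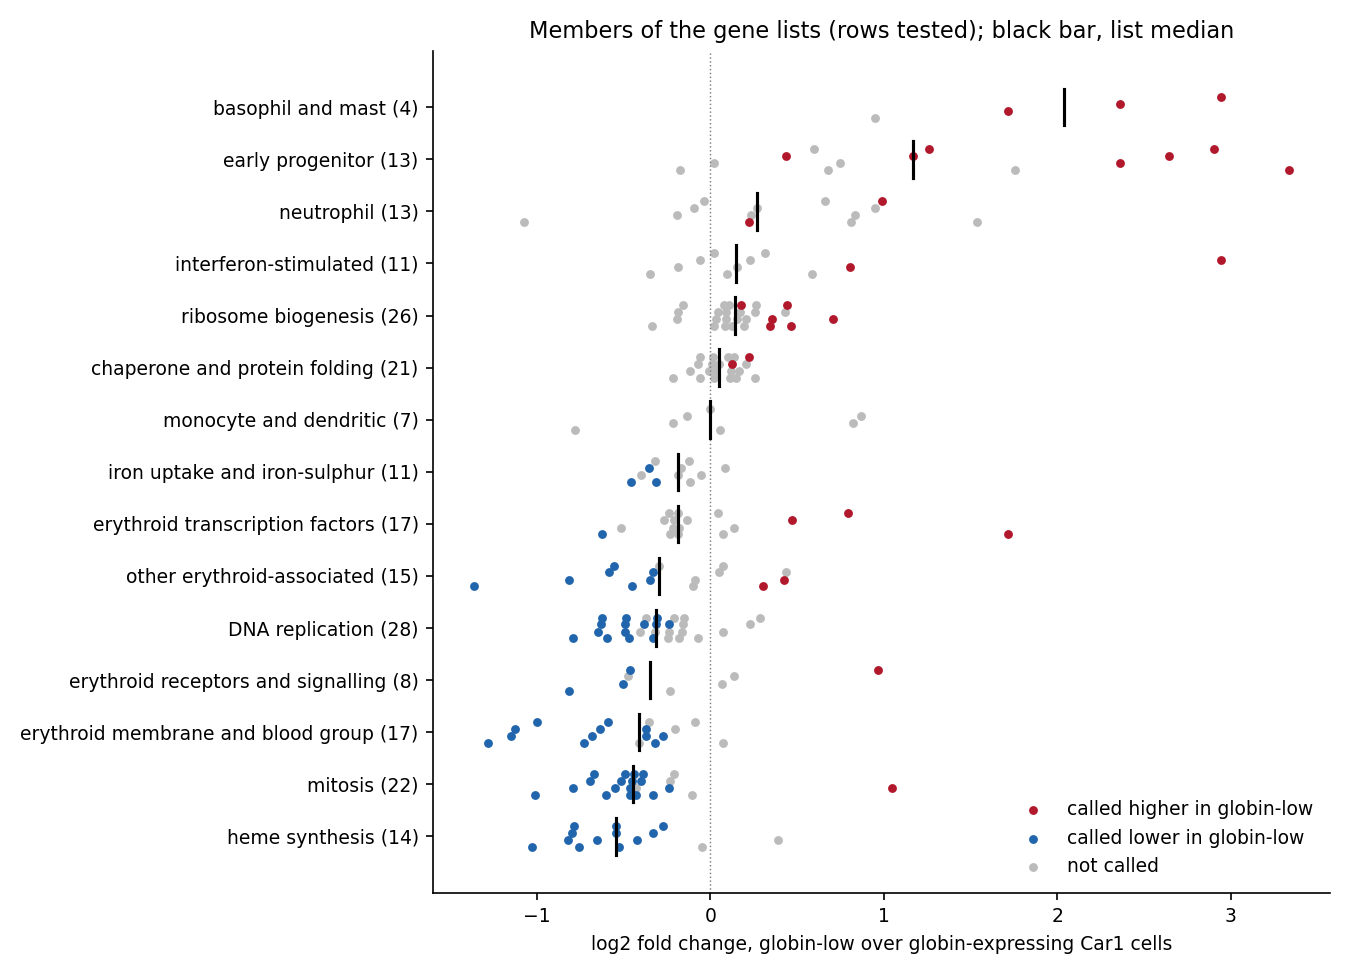
Log2 fold change (globin-low over globin-expressing cells, edgeR) of each tested member of 15 gene lists, with the number tested in brackets; red and blue points passed the test, grey did not, and black bars are list medians. Heme synthesis, mitosis and membrane genes lie left of 0, and early progenitor genes lie right of it with a median of 1.17.

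The members also differed among themselves along the number of globin UMIs they held, read at 4000 or more UMIs so that depths were near (median 5717, 6163 and 6155 UMIs at 0, 1 to 2 and 3 or more globin UMIs). Values are means ± SD over pools without TMM scaling, and the globin steps are those of the rule, so they are a description. Ctse was 308 ± 93.6, 538 ± 133 and 917 ± 136 CPM over the 3 steps. Spnb1 was 101 ± 35.6, 186 ± 66.2 and 284 ± 81.6 CPM. Apoe ran the other way, at 211 ± 98.6, 80.8 ± 61.4 and 41.7 ± 32.0 CPM, as did Myb at 732 ± 110, 542 ± 132 and 397 ± 115 CPM. Cells with 1 or 2 globin UMIs therefore lay between the other steps for these 4 genes. Klf1 was 1072 ± 136, 1120 ± 113 and 1201 ± 148 CPM, and neighbouring steps differed by less than their SD. Myc was 720, 588 and 499 CPM and Ncl 4536, 4308 and 3784 CPM, while the replication gene Rrm2 was 177, 222 and 294 CPM.

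**Figure D3:**
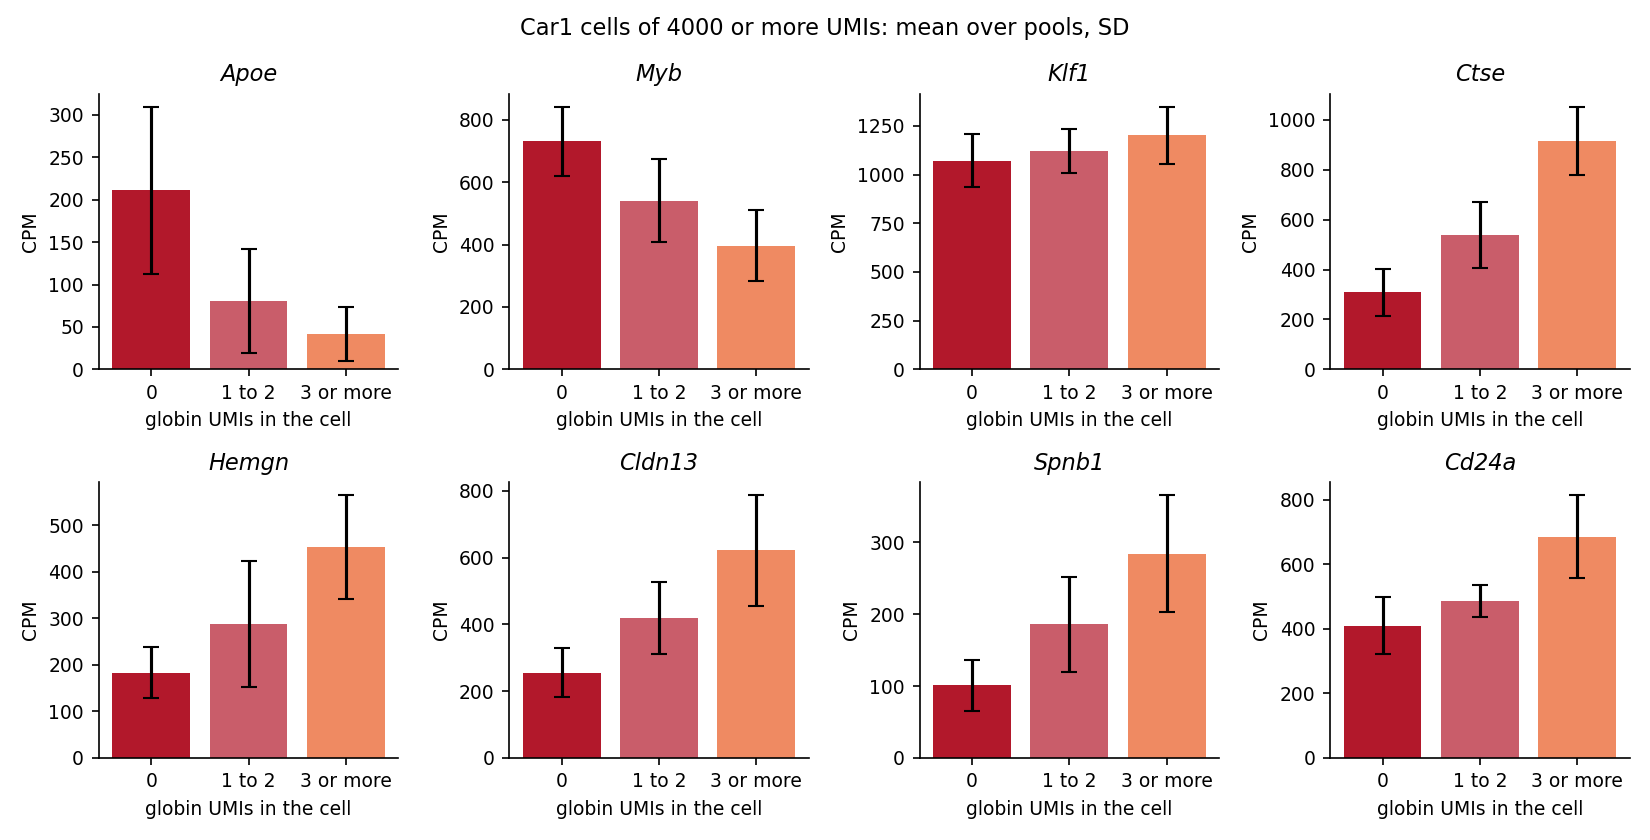
Mean CPM (without TMM scaling, linear axes from 0) of 8 genes in Car1 cells of 4000 or more UMIs with 0, 1 to 2 and 3 or more globin UMIs; bars are means over pools and error bars the SD. Apoe and Myb step down with globin UMIs, Ctse, Hemgn, Cldn13, Spnb1 and Cd24a step up, and Klf1 differs by less than its SD between neighbouring steps.

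Apoe and Ctse were next read in the same cells, after each cell was thinned to 2000 UMIs. Of the 665 members deep enough (215 were left out), 156 (23.5%) had Apoe alone, 241 (36.2%) had Ctse alone, 61 (9.17%) had both and 207 (31.1%) had neither. Of 162 globin-expressing cells, 2 (1.24%) had Apoe alone, 121 (74.7%) had Ctse alone, 11 (6.79%) had both and 28 (17.3%) had neither. Before thinning, members with Apoe alone had a median of 3386 UMIs and those with Ctse alone 5736, and the part of depth in this split was not tested. Their median surface FcgR was 61.0 with Apoe alone and 11.0 with Ctse alone, in fluorescence units.

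Members also spread by Car1 level, and this is again a value the rule used. At 2000 or more UMIs, cells with Car1 at 0.2% to under 0.5%, 0.5% to under 1% and 1% or more had 1083 ± 122, 1063 ± 102 and 1054 ± 182 CPM of Klf1, which did not differ beyond the SD. Ctse was 423 ± 86.1, 389 ± 87.8 and 278 ± 116 CPM and Apoe 275 ± 133, 252 ± 93.1 and 539 ± 349 CPM. Members with the most Car1 thus had lower Ctse and higher Apoe means, with wide spread between pools. Their median depth was 5429, 5099 and 3698 UMIs in the same order, and the part of depth was not tested.

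Surface proteins gave a measure outside the sequencing. CD34 marks early progenitors and FcgR marks granulocyte and monocyte progenitors, and both were recorded as fluorescence intensity at the sort. Pool medians of FcgR were 22.0, 32.0 and 42.0 (lowest, median, highest of 16 pools) in globin-low cells and -1, 14.0 and 21.0 (11 pools) in globin-expressing cells. The pools of the classes did not overlap, and globin-low cells were higher in 11 of 11 pools. The mean difference of log10 pool medians, with values at or below 1 set to 1, was 0.61 ± 0.45 (SD, n = 11; two-sided exact sign-flip permutation test, p = 0.000977, the smallest that 11 pools allow, and 0.0013 adjusted over 4 tests). Intensities at or below 0 made up 17.3% of globin-low and 37.4% of globin-expressing cells, so both medians lay near 0. The difference moved with depth. Members under 2000 UMIs had a pool mean FcgR of 117 ± 49.3 and those of 2000 or more had 19.8 ± 6.23. At 4000 or more UMIs the difference was 0.24 and no longer passed the test (8 of 14 pools higher, exact permutation adjusted p = 0.125).

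Surface CD34 had pool medians of 33.5, 40.3 and 78.0 in globin-low cells and 36.0, 45.5 and 62.5 in globin-expressing cells, which overlapped. The log10 difference was -0.04 ± 0.08 (SD, n = 11; 8 of 11 pools lower; exact permutation adjusted p = 0.121) and did not pass the test. At 4000 or more UMIs it was -0.06 and did pass (exact permutation adjusted p = 0.00407). Plates 3 and 9 stood apart in surface staining, with globin-low CD34 medians of 66.0 to 78.0 against 33.5 to 44.5 on the other plates. Without those plates the difference was -0.05 (exact permutation adjusted p = 0.0449).

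**Figure D4:**
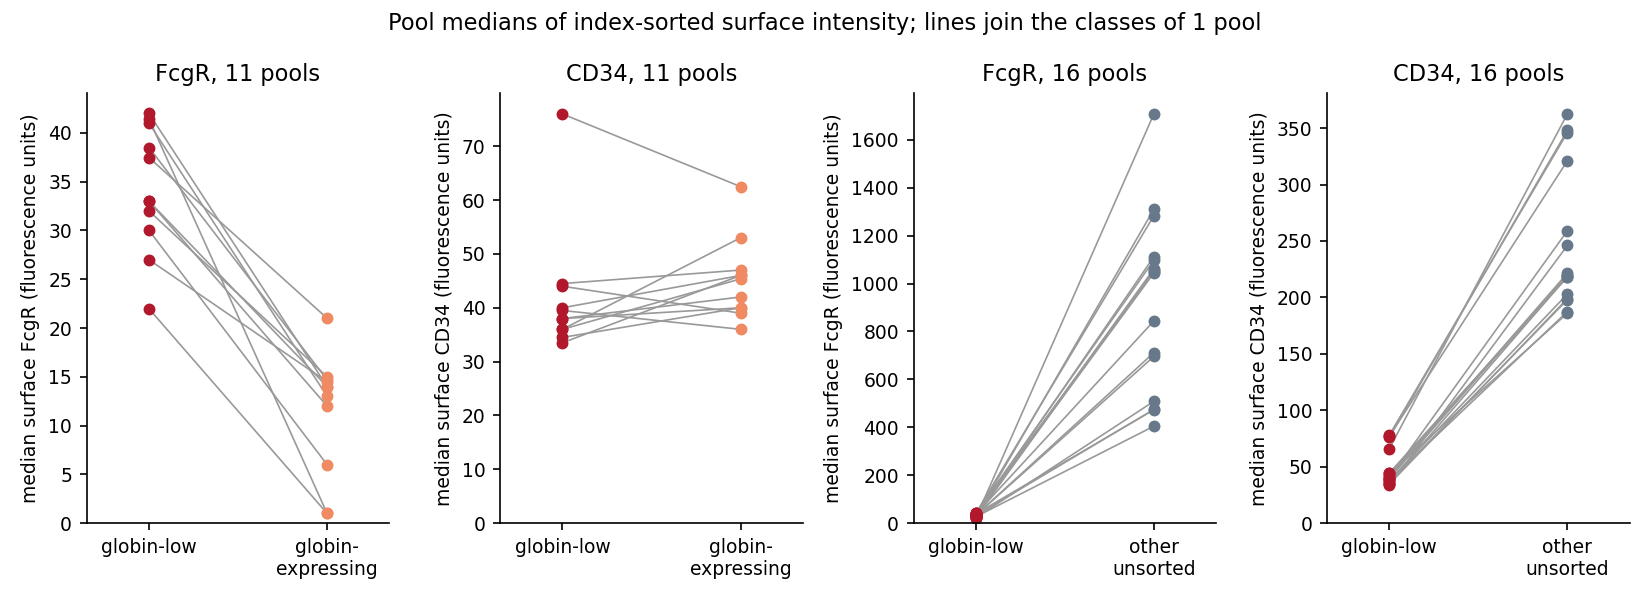
Pool medians of surface FcgR and CD34 (fluorescence units, linear axes from 0, values at or below 1 set to 1), with lines joining the classes of 1 pool, for globin-low against globin-expressing cells (11 pools) and against other unsorted cells (16 pools). FcgR is higher in globin-low than in globin-expressing cells in 11 of 11 pools, and both proteins are lower than in other unsorted cells in 16 of 16.

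The second comparison set the members against all other unsorted cells, a mixture rich in granulocyte and monocyte markers that also held cells near the rule. Among them were 37 cells with 3 or more globin UMIs and Car1 under 0.2%, and the 194 cells just below the Car1 threshold. In the same edgeR fit 1240 of 4973 rows (24.9%) were higher in globin-low cells and 1253 (25.2%) were lower, and DESeq2 called 17.5% higher and 25.4% lower. The lists of erythroid genes were higher nearly throughout. Membrane genes rose in 17 of 17 tested (median log2 fold change 1.49, against 0.02 over all rows), heme genes in 13 of 14 (0.94), other erythroid-associated genes in 14 of 15 (1.41), receptors in 7 of 8 (0.75) and iron genes in 9 of 11 (0.70).

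Klf1 stood at 956, 1038 and 1146 CPM in globin-low cells and at 160, 302 and 417 CPM in the others, with no overlap and a log2 fold change of 1.80 ± 0.06 (edgeR adjusted p = 2.17e-62). Erythroid factors rose in 14 of 17 cases, Gata1 by 1.60, Gfi1b by 1.46 and Zfpm1 by 1.43. The 3 that fell were Nfe2, Lyl1 and Lmo4, with log2 fold changes of -0.43, -1.02 and -2.30. The heme gene that fell was Alas1, at 44.7, 77.9 and 128 CPM in globin-low cells and 679, 898 and 994 CPM in the others (log2 fold change -3.43, edgeR adjusted p = 1.02e-86). The largest rises among genes of 100 CPM or more were Slc25a21, a mitochondrial carrier, by 2.40, Mt2 by 2.29 and Cyth3, an exchange factor for Arf GTPases, by 2.02. Mt2 stood at 1160, 1296 and 1705 CPM in globin-low cells and 139, 296 and 454 CPM in the others. Those pools did not overlap. In globin-expressing cells Mt2 stood at 865, 1001 and 1528 CPM, which overlapped with the members, and the members were higher in 9 of 11 pools.

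Of 13 early progenitor genes tested against the other cells, 3 were higher and 6 lower, beside 24.9% and 25.2% of all rows. The count of higher genes was thus near the share over all rows. Apoe rose by 0.45 (202, 278 and 483 CPM in the others, overlapping with the members), Ikzf1, a lymphoid and progenitor factor, by 0.76 and Myc by 0.28. Cd34 fell by 4.01, Cd63 by 3.45, Etv6 by 1.87, Sox4 by 1.86, Runx1 by 1.40 and Muc13 by 1.06. Gata2 had a log2 fold change of 0.00 (edgeR adjusted p = 0.992), with 65.5, 113 and 181 CPM in the others. The Gata2 value moved with the setting. At 2000 or more UMIs it was higher in the members by 0.37 (edgeR adjusted p = 0.0463). It was also higher with members at 0 globin UMIs and no further depth threshold, and the cause was not tested.

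All 13 neutrophil and all 7 monocyte and dendritic genes tested fell, with median log2 fold changes of -4.30 and -4.81. Elane stood at 66.9, 163 and 367 CPM in globin-low cells and at 4947, 6770 and 8922 CPM in the others (log2 fold change -5.21, edgeR adjusted p = 1e-138). Irf8, a factor of monocyte and dendritic fate, fell by 5.08 and Csf1r, the receptor for macrophage growth factor, by 4.45. The secretory inhibitor Slpi fell by 5.86. Over all rows 24.9% were called higher and 25.2% lower in this comparison. In the cell cycle lists 6 of 28 replication genes were higher and 3 lower, and 4 of 22 mitosis genes higher and 2 lower. Their higher counts were near the share over all rows, and their lower counts were below it. Ribosome biogenesis rose in 16 of 26 (median 0.26) and chaperones in 14 of 21 (0.27), while the endoplasmic reticulum chaperone Hspa5 fell by 1.36. Of the interferon-stimulated genes 4 of 11 rose and 6 fell, Ly6e by 1.16.

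At the surface the members were far below the other unsorted cells. FcgR medians were 22.0 to 42.0 in globin-low and 405 to 1709 in other pools, and the log10 difference was -1.43 ± 0.21 (SD, n = 16). CD34 medians were 33.5 to 78.0 and 186 to 363, with a difference of -0.72 ± 0.07. Both were lower in 16 of 16 pools (exact permutation adjusted p = 6.1e-05 each).

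Finally the same rule was applied to all 8 groups, unsorted cells included, over 42 of the 54 pools and 6405 kept cells. The 12 pools left out carry a sample label that differs from the well description and were not analysed here. Each group has 1 mouse identifier, so shares carry exact binomial 95% intervals (Clopper-Pearson, counting error only) and no test. Globin-low cells were 51.4% of 847 Cebpa knockout cells (47.9% to 54.8%) and 21.0% of 558 Cebpa control cells (17.7% to 24.6%). Cebpa, which encodes a factor needed for granulocyte and monocyte progenitors, held 0 or 1 UMI in each knockout pool and 35 to 64 in each control pool. The control pools divided in pairs. Replicates 3 and 4, which lie on plate 26 and carry the Cebpa(flox/flox)Mx1-Cre genotype label of the knockout, had 32.9% and 32.1%. Replicates 5 and 6, on plate 27 and labelled Cebpa(flox/flox), had 4.27% and 5.22%. The knockout pools ranged over 35.1% to 57.8%, above all 4 control pools, and plate and label cannot be told apart among the controls.

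The Cebpe groups follow the well descriptions in the authors' table, since the sample labels of those pools name other groups. Cebpe, which encodes a factor of late granulocyte maturation, held 0 UMIs in each of the 4 knockout pools and 21 and 40 in the control pools. Cebpa stood at 39.3 and 57.1 CPM in these control pools, whose sample labels name the Cebpa knockout. In the 4 Cebpe knockout pools it stood at 257 to 338 CPM, and in the Cebpa control pools at 73.8 to 152 CPM. The cause of these differences was not tested. Globin-low cells were 7.16% of 559 Cebpe knockout cells (5.16% to 9.62%) and 33.6% of 250 Cebpe control cells (27.8% to 39.8%). The control share lay next to that of the unsorted wild-type cells, 32.2% (30.5% to 34.0%). In the CMP gates 0 of 336 CD41 cells, 0 of 380 Flt3+ Csf1r+ cells and 0 of 743 Irf8-GFP+ MHCII+ cells passed the rule, which allows shares of up to 0.893%, 0.789% and 0.404%, taken as 3 cells of the total. The upper Clopper-Pearson bounds were 1.09%, 0.966% and 0.495%. These gates were sorted as CD34-positive, and the members were low in surface CD34.

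Members of the other groups also expressed Klf1, at 702 CPM in the Cebpa knockout and 660 in its control, and 972 CPM in the Cebpe knockout and 846 in its control, against 1057 CPM in unsorted cells (summed over members). The globin-low share of all Car1 cells was 81.2% in the Cebpa knockout, 65.0% in its control, 69.0% in the Cebpe knockout, 78.5% in its control and 84.4% in unsorted cells. The median depth of all kept cells was 1887 UMIs in the Cebpa knockout and 2895 in its control. At 2000 or more UMIs the shares of all cells were 52.0% and 22.0% for Cebpa, 6.90% and 31.1% for Cebpe, and 34.2% in unsorted cells, so each knockout stood on the same side of its own control at both depths. The Cebpe control stood above the unsorted cells over all kept cells and below them at 2000 or more UMIs.

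**Figure D5:**
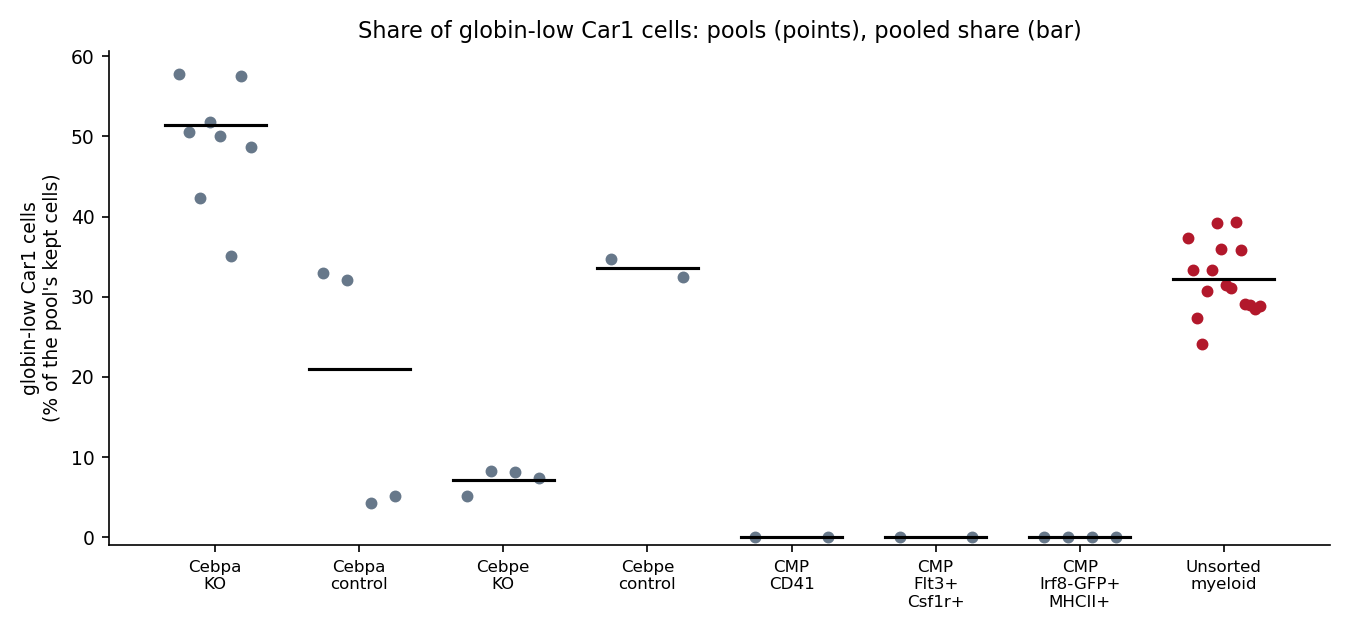
Share of kept cells that met the globin-low rule (percent, linear axis) in each pool (points) and pooled over each group (bars). The unsorted pools sit between 24.1% and 39.3%, the Cebpa knockout pools between 35.1% and 57.8%, the Cebpa control pools in 2 pairs, and all CMP gate pools at 0.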

How the data were processed

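Members, gene lists and comparisons were chosen with earlier results of these data known. UMI counts for 27297 gene rows per well were used as the authors deposited them, as raw counts. The submitters' processing notes name bcl2fastq 2.15.0.4 and the build mm9. The aligner was not given in the sources used here. Surface CD34 and FcgR intensity per well came from the authors' deposited well table. Wells were grouped by sample label, which 36 of 54 pools share with that table, and of the 18 others 6 were used, for Cebpe by the table, and 12 were left out, a change made after the tables were compared. Replicates of unsorted cells are amplification pools. Between any pair of them the chi-square was at least 1.26 per degree of freedom, so none was counted as a copy. Wells were sorted to hold single cells and no doublet caller was run. The UMI tag has 256 possible forms, and the highest count of a row in a cell was 161.

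UMIs were summed per pool and class and fitted in edgeR 4.0.16 (R 4.3.3, glmQLFit and glmQLFTest, TMM, filterByExpr, Benjamini-Hochberg), with all 3 classes in 1 fit, the Car1 and globin rows kept in library sizes and left out of calls. The pool was a block because the classes share it. A pool entered with 10 or more cells in each class. On simulated data for the comparison with globin-expressing cells (4915 rows, 200 changed), 93.6% of 2-fold and 100% of 4-fold changes were recovered, and 4.59% of calls were false. The simulation gave every row the same spread and the same base mean in all classes, without pool effects. Spread in the real data differs between genes, so these rates need not hold there. DESeq2 1.42.0 was an alternative. Surface medians were tested by sign flips over pools, adjusted over 4 tests. Joined rows (2109) cannot be given to 1 gene. Globin genes and Ly6c2 have near-identical copies whose reads could be split. Named genes were, per comparison, the 10 largest called changes each way among single-symbol rows of 100 CPM or more with the same direction in at least 9 of 11 pools, 13 marker genes always, and up to 4 called members per list with the lowest adjusted p. List members beyond these were named after their values were seen. Promoters came from RefSeq (GRCm38.p6), another build than that of the counts, and were matched by symbol.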

Additional observations from a re-analysis of the deposited data

How the results depend on the processing

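Against globin-expressing cells, 557 rows were called (290 higher, 267 lower). Without a filter on low counts there were 523 higher and 156 lower among 13800 rows. Thinning each cell to 1000 UMIs left 84 (47 and 37) of 1335 rows, 4000 or more UMIs gave 286 (136 and 150) of 3122, and sequencing batch SB17 alone, with 3 pools, gave 84 (49 and 35). Batch SB19 alone gave 191 higher and 201 lower. The classes of a pool are paired by it, and without that replicate block 206 were higher and 167 lower. Leaving out 1 plate at a time gave 385 to 557 calls, 202 to 290 higher and 183 to 267 lower.

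Against the other cells, 2493 rows were called. The counts were 3826 without the filter (2301 lower), 562 when thinned (282 and 280), 1294 at 4000 or more UMIs (685 and 609) and 1341 in SB17 alone (543 and 798), and 933 higher and 1053 lower without the block. Leaving out plates gave 2271 to 2493 calls, 1113 to 1293 higher and 1126 to 1253 lower. DESeq2 called 869 higher and 1264 lower. Gata2 against the other cells turned to 0.373 at 2000 or more UMIs and 0.381 with members at 0 globin UMIs, and the cause was not tested.

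The surface CD34 difference from globin-expressing cells passed its test at -0.066 with 2000 or more UMIs, -0.061 with 4000 or more and -0.053 without plates 3 and 9, and without plate 3 alone, and ran from -0.053 to -0.023 over single plates left out. That of FcgR was 0.239, not past the test, at 4000 or more UMIs, and 0.519 to 0.677 over plates left out. Against the other cells, leaving out plates gave -0.735 to -0.712 for CD34 and -1.472 to -1.393 for FcgR. The mean pool share of members was 25.9% with 0 globin UMIs required, and the Cebpe control share was 31.1% at 2000 or more UMIs. Settings by 4000 UMIs, batch or plates 3 and 9, and the series shares at 2000 UMIs, were chosen after seeing the data. Requiring 20 cells per pool and class, or a globin share of 0.1% in place of a count, left no pool to fit. FcgR without values at or below 1 left too few cells for the comparison of Car1 classes.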
